A study of Homo sapiens with 20 samples.

Results

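The SLAM family genes encode cell surface receptors of immune and blood cells, and 9 of them lie on the long arm of human chromosome 1. RUNX1 binding around these genes was read from chromatin immunoprecipitation with sequencing (ChIP-seq) in THP-1 cells, a human line that was established from an acute monocytic leukemia. All peaks within 50 kb of the RefSeq span of CD48, SLAMF1, SLAMF6, SLAMF7, SLAMF8, SLAMF9, CD84, CD244 or LY9 were taken, which gave 19 of the 26642 peaks of the merged set. Control cells carried a scramble shRNA cassette and knockdown cells an inducible shRNA cassette against the transcription factor PU.1, and both were induced with doxycycline. The RUNX1 libraries numbered 6 per genotype, with 3 control and 2 knockdown libraries in batch 1 and 3 control and 4 knockdown libraries in batch 2. Replicates were independent immunoprecipitations from THP-1 cells per a figure legend of the study, so their spread is not that of different patients or clones. Control and knockdown cells carried different cassettes and were separate derivatives of THP-1. A difference between these derivatives cannot be told apart from the effect of the knockdown. IgG libraries were not analysed here, and neither PU.1 nor any SLAM family transcript or protein is measured by this assay.

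The locus was selected on the log2 fold changes of this same comparison of knockdown with control cells, in which 2 strongly lost peaks within CD48 stood out. Values of that comparison are therefore a description of the locus, and no p-value is given for them. A peak is called lost or gained when it passes the study's thresholds in a DESeq2 fit over all peaks (adjusted p under 0.05, fold change over 1.1). The same holds for the values within each batch, which are parts of that comparison. Tests are given for the difference of the knockdown effect between batches and for control libraries between batches. Adjusted p-values of the knockdown comparison are printed only for single peaks of a list of signalling genes and related receptors. Most of those peaks were named by that value, so it describes them and is no independent support.

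SLAM family receptors belong to the immunoglobulin superfamily. Most of them bind the same receptor on a neighbouring cell, whereas CD48, which is held in the membrane by a lipid anchor, is the ligand of CD244. Receptors with a signalling tail carry tyrosine motifs that recruit the adaptors SAP and EAT-2 and, through them, Src family kinases, whereas SLAMF8 and SLAMF9 have short tails without these motifs. Expression of CD48, CD244 and SLAMF1 is widely used to separate stem cells from progenitors in mouse bone marrow. RUNX1 binds DNA as a heterodimer with CBFB, and PU.1 is an ETS family factor that acts with RUNX1 at many myeloid regulatory elements.

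Promoter sequences (RefSeq GRCh38.p14, 250 bases before to 50 bases after the gene start) were at hand for 6 of the 9 genes. They are shown for CD48 because the largest losses lie downstream of it, for CD244 because it alone of the 6 lies within a peak, and for SLAMF8 because it alone holds a RUNX motif. Each is printed 5′ to 3′ on the strand of its gene, and capitals mark the motifs searched on both strands, TGTGGT and TGCGGT for RUNX and GAGGAA for PU.1 type ETS factors.
CD48, chr1:160711773-160712072, minus strand: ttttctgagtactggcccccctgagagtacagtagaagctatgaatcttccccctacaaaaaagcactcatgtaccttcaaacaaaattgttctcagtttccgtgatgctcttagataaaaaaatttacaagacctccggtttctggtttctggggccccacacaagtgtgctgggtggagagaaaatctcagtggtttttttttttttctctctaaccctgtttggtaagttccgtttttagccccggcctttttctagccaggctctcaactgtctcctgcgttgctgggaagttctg
CD244, chr1:160862838-160863137, minus strand: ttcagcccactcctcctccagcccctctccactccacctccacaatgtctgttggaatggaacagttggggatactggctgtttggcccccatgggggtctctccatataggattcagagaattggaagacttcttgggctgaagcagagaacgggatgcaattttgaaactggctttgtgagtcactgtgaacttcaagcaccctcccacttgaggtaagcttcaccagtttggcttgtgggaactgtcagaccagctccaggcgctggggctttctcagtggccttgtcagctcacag
SLAMF8, chr1:159826623-159826922, plus strand: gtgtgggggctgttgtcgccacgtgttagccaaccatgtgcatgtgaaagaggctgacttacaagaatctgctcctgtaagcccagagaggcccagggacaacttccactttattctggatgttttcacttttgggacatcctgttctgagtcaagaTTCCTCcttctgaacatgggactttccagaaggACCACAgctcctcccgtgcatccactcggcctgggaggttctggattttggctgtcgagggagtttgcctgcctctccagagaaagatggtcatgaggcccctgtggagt
The SLAMF8 promoter held TGTGGT on the opposite strand from base 191 to 196 and GAGGAA on the opposite strand from base 158 to 163, counted from its first printed base. None of these 3 words was found in the CD48 or CD244 promoter. Of the other 3 promoters, that of SLAMF6 (chr1:160523206-160523505) held GAGGAA, and those of SLAMF1 and SLAMF9 held none. Among all 35116 promoters of the table, 13.1% held TGTGGT, 7.29% TGCGGT and 27.9% GAGGAA. The nearest peak lay 3120 bp from the CD48 promoter and 25858 bp from the SLAMF8 promoter.

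Libraries held between 630247 and 1719840 reads in peaks. Control replicate 1 stood apart on the second principal component of the 500 most variable peaks, with a score of 3.93 where the other 11 libraries lay between -1.42 and 1.73. Its left-out values are given below. Of the 19 peaks, 12 had at least 10 reads in each of the 12 libraries, and all 19 remained in the DESeq2 test. Normalised counts below are reads divided by the DESeq2 size factor of the library. The 19 peaks were between 436 and 2939 bp wide.

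Upon PU.1 knockdown, RUNX1 binding fell most within CD48 and fell at single peaks near SLAMF1, between SLAMF7 and LY9, and at the start of CD244. In all, 6 of the 19 peaks (31.6%) were called lost, where 20.7% of all peaks were, and 1 (5.26%) was called gained, where 21.3% of all peaks were. In either direction 7 were called, beside 42.0% of all peaks. Of the lost peaks, 5 fell more than 2-fold, as did 8.20% of all peaks, and no peak of the cluster gained more than 2-fold, as did 8.86% of all peaks. Knockdown libraries lay below all control libraries of their batch at 6 of the 19 peaks (13.9% of all peaks) and above them at 1 (14.4% of all peaks). The 19 peaks had a median log2 fold change of 0.036, next to -0.025 over all peaks, and ran from -3.04 to 0.94. Within the 10 Mb around each of the 19 peaks, the median log2 fold change was between -0.19 and -0.18, and the part of this regional level in the single values was not tested.

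**Figure D1:**
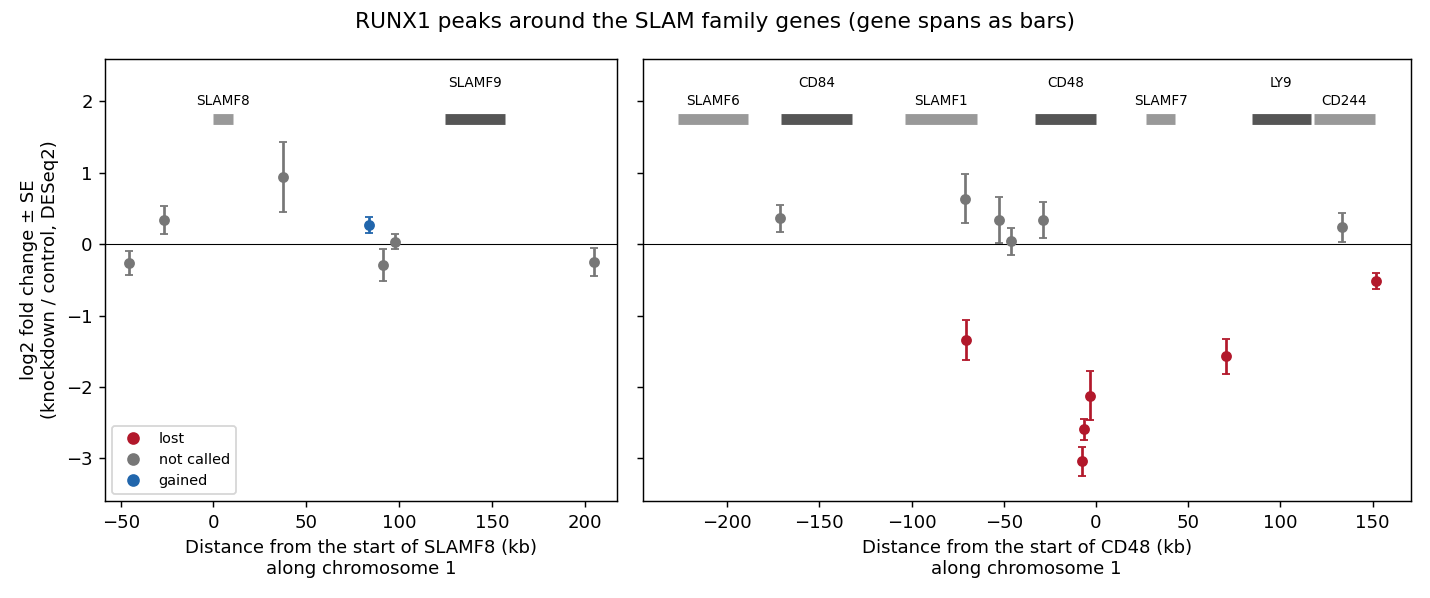
Log2 fold change of RUNX1 binding (knockdown over control, DESeq2, ± SE, vertical axis) of the 19 peaks against distance in kb from the start of SLAMF8 (left) or CD48 (right), with gene spans as bars and colours for lost, gained and uncalled peaks. All 6 lost peaks lie in the right panel, from SLAMF1 to CD244, and the 1 gained peak lies in the left panel between SLAMF8 and SLAMF9.

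Within CD48 lay 4 peaks, named here by the distance of their nearer edge downstream of the gene start, and 3 of them were lost. At the +7 kb peak (chr1:160703853-160704686), control libraries held 64.97, 95.7 and 121.1 normalised counts (lowest, median, highest) and knockdown libraries 9.25, 12.4 and 16.6. The groups were far apart, as the highest knockdown library lay well below the lowest control library. The log2 fold change was -3.04 ± 0.20 (SE), which placed it 33rd from the lowest among all peaks. At the +6 kb peak (chr1:160705013-160705868), control libraries held 132.5, 158.1 and 175.1 and knockdown libraries 19.2, 27.04 and 29.3, with a log2 fold change of -2.60 ± 0.15. These 2 peaks are 326 bp apart and are not independent of each other. The +7 kb peak held 0.609 ± 0.103 times the count of the +6 kb peak in control libraries and 0.485 ± 0.131 times in knockdown libraries (SD, n = 6 each), and these ranges overlapped (0.490 to 0.767 and 0.326 to 0.667).

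The +3 kb peak (chr1:160708066-160708653), the closest to the start of CD48, was weaker and also lost. Its control libraries held 12.995, 22.9 and 29.3 normalised counts and its knockdown libraries 1.83, 6.15 and 10.7, with a log2 fold change of -2.12 ± 0.34. Raw counts ran from 2 to 28 reads here, so counting error is large. The +28 kb peak (chr1:160683024-160683714), in the far part of the gene, did not follow the other 3. It held 13.9, 19.8 and 26.5 in control and 17.4, 24.7 and 35.6 in knockdown libraries, the groups overlapped, and the log2 fold change of 0.33 ± 0.25 was not called. A protein-coding RefSeq gene model without a name, LOC124904439, overlaps CD48 and the +28, +7 and +6 kb peaks. The +28 and +6 kb peaks each overlap an end of this model. Exons and introns were not used here.

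**Figure D2:**
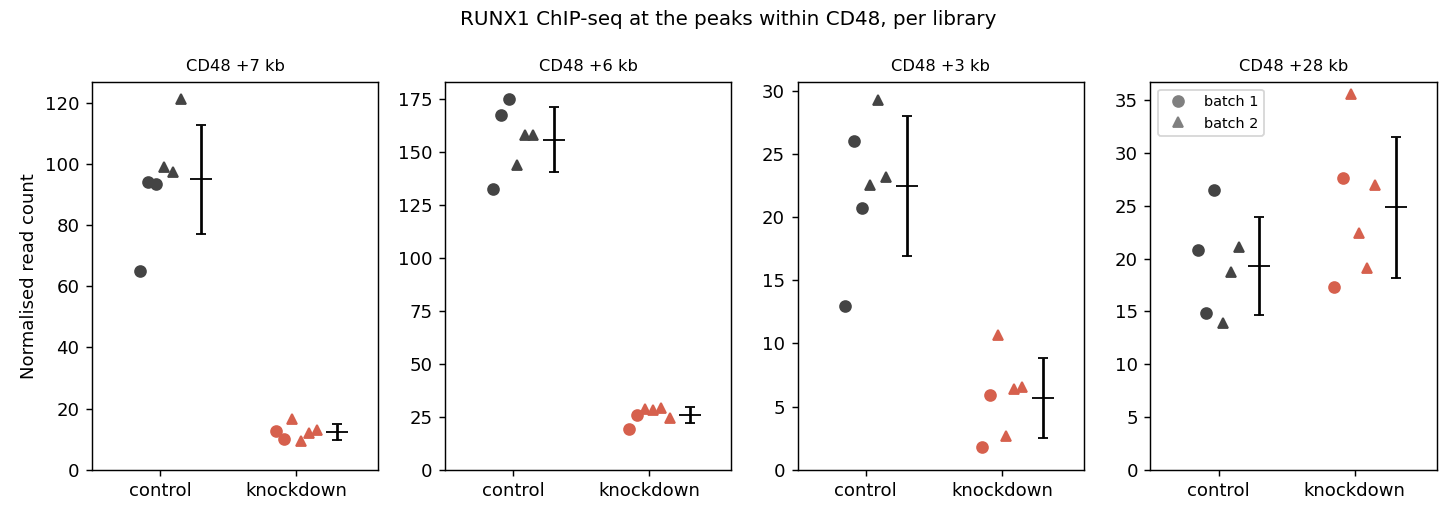
Normalised RUNX1 read counts (vertical axis, from 0, scaled per panel) at the 4 peaks within CD48 in each control and knockdown library, with circles for batch 1, triangles for batch 2 and the mean ± SD (n = 6) beside them. The groups do not overlap at the +7, +6 and +3 kb peaks and overlap at the +28 kb peak.

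The 3 lost peaks of CD48 made up 25.9% ± 3.07 (SD, n = 6) of the normalised counts over the 19 peaks in control libraries, and 5.48% ± 1.01 in knockdown libraries. Their sum fell from 273.3 ± 33.0 to 43.8 ± 7.46 normalised counts. The sum over the remaining 16 peaks was 780.4 ± 56.3 in control and 758.6 ± 40.6 in knockdown libraries. These 16 include 3 further lost peaks and were set apart by the loss of the other 3, so their sum is a description only. Control replicate 1 was the lowest control library at each of the 3 lost CD48 peaks. Without it, their log2 fold changes were -3.10, -2.63 and -2.19 for the +7, +6 and +3 kb peaks.

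SLAMF1 (CD150), a receptor of lymphocytes and activated monocytes that also serves as an entry receptor of measles virus, held 2 weak peaks that are 376 bp apart. The +5 kb peak (chr1:160641210-160641961) held 17.3, 23.4 and 33.8 normalised counts in control and 8.22, 9.73 and 11.9 in knockdown libraries. All knockdown libraries lay below all control libraries, and the peak was called lost with a log2 fold change of -1.35 ± 0.28. The +6 kb peak (chr1:160640398-160640833) held 6.32, 8.66 and 11.2 in control and 9.88, 12.1 and 19.8 in knockdown libraries. Here the groups overlapped, and the log2 fold change of 0.64 ± 0.35 was not called, with raw counts of 5 to 30 reads. The +6 kb peak was called gained after the 10 Mb median was subtracted. The ratio of the +6 kb to the +5 kb peak within a library ran from 0.192 to 0.545 in control and from 0.90 to 2.0 in knockdown libraries. The genotypes did not overlap in this ratio. The +5 kb peak alone already separated them, so the ratio is a description and no further result. Upstream of SLAMF1 lay peaks at chr1:160658786-160659310 and chr1:160665237-160666512, the second of them nearer to CD48, 12234 bp from its far end. Their log2 fold changes were 0.34 ± 0.32 and 0.038 ± 0.19, and neither was called.

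No peak lay within SLAMF7 or LY9. SLAMF7 (CRACC) is an activating receptor of natural killer cells and macrophages, and LY9 (CD229) is a receptor of lymphocytes that binds itself. The peak between them (chr1:160782061-160782792), 27240 bp from SLAMF7 and 13382 bp from LY9, overlapped the long noncoding RNA LOC105371470. It held 28.8, 32.1 and 40.3 normalised counts in control and 8.92, 10.8 and 17.2 in knockdown libraries. The groups were separate, and the peak was called lost with a log2 fold change of -1.57 ± 0.25.

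CD244 (2B4), the receptor of CD48 on natural killer cells and some myeloid cells, had 2 peaks. The wider one (chr1:160862129-160864789) spanned the gene start and the promoter printed above. It held 109.04, 117.1 and 135.1 normalised counts in control and 72.4, 82.1 and 88.5 in knockdown libraries, again without overlap, and was called lost with a log2 fold change of -0.52 ± 0.12. This loss was far smaller than those at CD48. The second peak (chr1:160844752-160845955), within the gene 17 kb from its start, held 20.8, 32.02 and 57.2 in control and 30.8, 44.6 and 48.1 in knockdown libraries, overlapped between the groups and was not called (log2 fold change 0.24 ± 0.20).

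**Figure D3:**
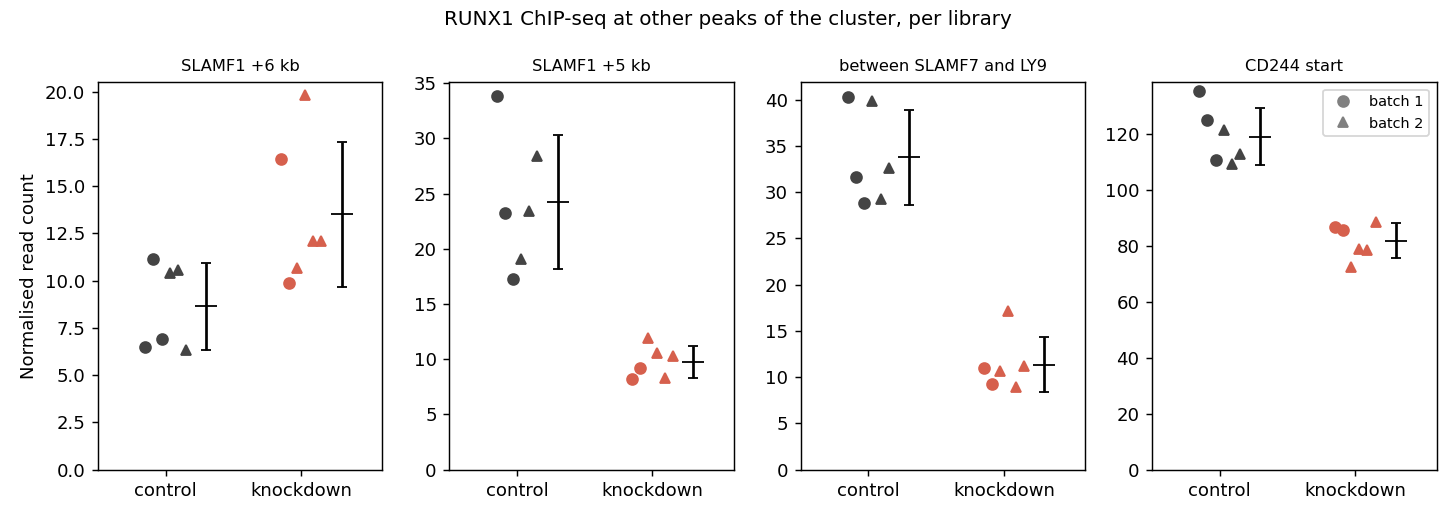
Normalised RUNX1 read counts (vertical axis, from 0, scaled per panel) per library at the SLAMF1 +6 kb and +5 kb peaks, the peak between SLAMF7 and LY9 and the peak at the start of CD244, with circles for batch 1, triangles for batch 2 and the mean ± SD (n = 6) beside them. Control and knockdown libraries overlap at the SLAMF1 +6 kb peak and are separate at the other 3.

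CD84 and SLAMF6, receptors that bind themselves and are found on leukocytes, shared 1 peak (chr1:160540052-160541089), which ended 9 bp from CD84 and lay 16797 bp from the start of SLAMF6. It held 33.5, 39.9 and 44.9 normalised counts in control and 38.2, 43.4 and 79.5 in knockdown libraries. The highest value came from knockdown replicate 1 and the other 5 knockdown libraries reached 48.2. Its log2 fold change of 0.36 ± 0.19 was not called. It was 0.13 without knockdown replicate 1 and 0.51 without knockdown replicate 2, and the peak was called gained without the latter and after the 10 Mb median was subtracted.

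The genes SLAMF8 and SLAMF9 lie apart from the other 7 and towards the centromere, and no peak lay within either of them. The 7 peaks within 50 kb lay at or near other genes, and 5 of them overlapped an end of DUSP23, FCRL6, PIGM or TAGLN2 (2 peaks). Their summed normalised counts were 451.0 ± 39.0 in control and 472.1 ± 29.3 in knockdown libraries (SD, n = 6), whereas the 12 peaks around the other 7 genes held 602.8 ± 26.3 and 330.3 ± 17.1. Most of the latter difference came from the 3 lost CD48 peaks for which the locus was chosen, as the other 9 of the 12 peaks held 329.5 ± 20.999 in control and 286.5 ± 21.4 in knockdown libraries. The strongest of the 7 (chr1:159923142-159926080) overlapped an end of TAGLN2, which encodes an actin-binding protein, and held 151.2, 160.4 and 171.7 in control and 123.9, 171.4 and 174.6 in knockdown libraries. It was not called (log2 fold change 0.036 ± 0.10), nor was a narrower TAGLN2 peak beside it (chr1:159917660-159918562, log2 fold change -0.29 ± 0.22). The 1 gained peak (chr1:159910024-159911317), 40175 bp from SLAMF9 and 6794 bp from TAGLN2, held 90.3, 105.7 and 113.7 in control and 117.6, 125.0 and 134.2 in knockdown libraries. The groups did not overlap, but the log2 fold change was 0.27 ± 0.11 and the call was lost in each batch alone, with the replicate block and without any 1 of 8 libraries (control replicates 2, 4 and 6 and knockdown replicates 1, 2, 4, 5 and 6).

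The peak nearest to the start of SLAMF8 (chr1:159800032-159800765) lay at an end of the receptor gene FCRL6. It held 23.2, 32.01 and 46.8 in control and 27.96, 44.5 and 51.1 in knockdown libraries. Its log2 fold change of 0.34 ± 0.20 was not called, but the peak was called gained after the 10 Mb median was subtracted. A peak near VSIG8 (chr1:159864086-159864759) had the highest log2 fold change of the 19, 0.94 ± 0.49, with control libraries from 1.05 to 29.5 normalised counts. It was not called by DESeq2 and was called gained by edgeR and without control replicate 4. The peaks at DUSP23 (chr1:159780302-159781975) and PIGM (chr1:160030971-160032453), the farthest from a SLAM family gene at 44898 and 46987 bp, had log2 fold changes of -0.26 ± 0.17 and -0.25 ± 0.19 and were not called. Just outside the 50 kb limit, at 52171 and 70067 bp, lay 2 peaks that were called lost (chr1:159889663-159890333 within CFAP45 and chr1:159756020-159756806), with log2 fold changes of -0.85 ± 0.25 and -0.91 ± 0.26.

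Read per kb of peak width, the +6 kb peak of CD48 carried the highest RUNX1 level of the 19 in control libraries, with 182.1 ± 18.1 normalised counts per kb (SD, n = 6), followed by the CD48 +7 kb peak with 113.8 ± 21.5. The gained peak near TAGLN2 came next with 80.5 ± 7.13 and the strong TAGLN2 peak after it with 54.5 ± 2.87. From the fifth place on, neighbours in this order differed by less than the larger of their SDs, from 46.1 ± 6.97 at the peak between SLAMF7 and LY9 down to 19.8 ± 5.24 at the SLAMF1 +6 kb peak. In knockdown libraries, the CD48 +6 kb peak stood at place 12 with 30.2 ± 4.46 and the +7 kb peak at place 17 with 14.7 ± 3.16. The gained peak near TAGLN2 then had the highest level, 96.6 ± 4.21 normalised counts per kb.

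**Figure D4:**
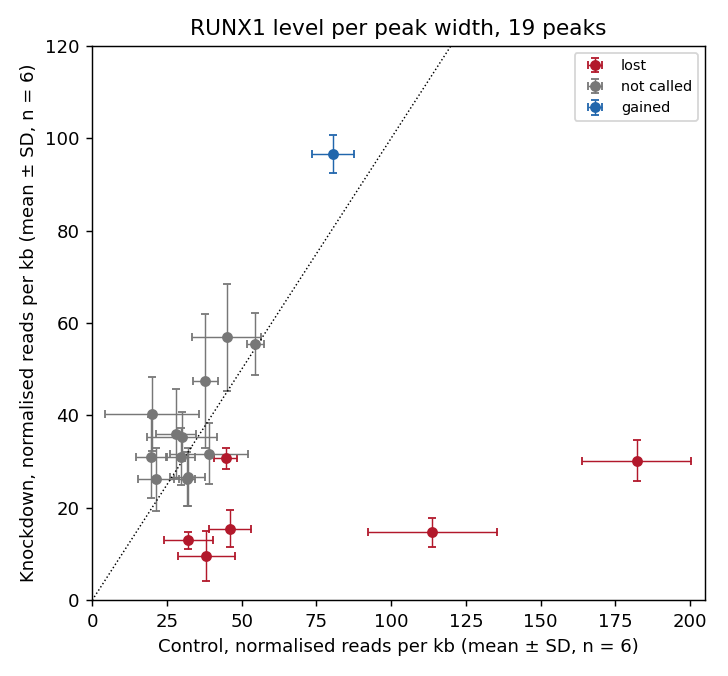
Normalised RUNX1 read counts per kb of peak width in control (horizontal axis) and knockdown libraries (vertical axis) for the 19 peaks, as mean ± SD (n = 6 libraries each), with equal levels on the dotted line. The CD48 +6 kb and +7 kb peaks lie at the far right and low, at 182.1 and 113.8 in control against 30.2 and 14.7 in knockdown.

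The values within each batch are parts of the comparison that chose the locus and are given as a description. At the CD48 +7 kb peak, the log2 fold change was -2.90 ± 0.39 (SE) in batch 1 and -3.11 ± 0.27 in batch 2, and at the +6 kb peak -2.79 ± 0.29 and -2.47 ± 0.20. Of the 19 peaks, 6 were called lost in batch 2 alone (13.1% of all peaks) and 4 in batch 1 alone (6.61% of all peaks). All of them were among the 6 called lost over both batches. Those 6 were picked by the fit over the same libraries, so these counts are no replication. In batch 1 the SLAMF1 +5 kb and CD244 start peaks were not called. None was called gained in either batch alone, beside 5.38% of all peaks in batch 1 and 12.8% in batch 2. The test of a difference between batches in the knockdown effect, which the choice did not use, called 0 of the 19 peaks (DESeq2 interaction at an adjusted p under 0.05, 0 by edgeR) and 0 of all peaks, with 2 knockdown libraries in batch 1, so it does not show that the effects were equal. At an unadjusted p under 0.05 there was 1 (2.51% of all peaks), the second CD244 peak, with log2 fold changes of 0.76 ± 0.38 and -0.12 ± 0.26 (DESeq2 interaction adjusted p = 1.0). The log2 fold change in batch 2 minus that in batch 1 was -0.18 at the CD48 +7 kb peak (95% interval -1.04 to 0.67), 0.33 at the +6 kb peak (-0.29 to 0.95) and 0.28 at the +3 kb peak (-1.20 to 1.76). Levels in control cells were also compared between batches, and 0 of the 19 peaks and of all peaks passed the test (DESeq2, adjusted p under 0.05, 0 of the 19 by edgeR), with 1 of the 19 at an unadjusted p under 0.05 (2.50% of all peaks). That 1 was again the second CD244 peak, with control means of 26.9 normalised counts in batch 1 and 45.7 in batch 2. Both tests used the same control libraries, so these results are not independent.

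**Figure D5:**
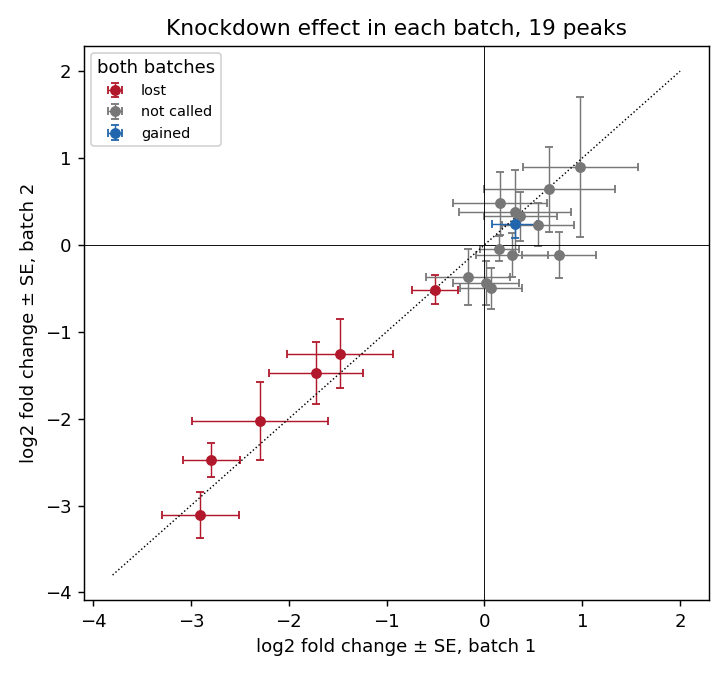
Log2 fold change (± SE, DESeq2) of the 19 peaks in batch 1 (horizontal axis) and batch 2 (vertical axis), with equal effects on the dotted line and colours for the calls over both batches. The 6 lost peaks lie below 0 in both batches, between -2.90 and -0.50 in batch 1 and between -3.11 and -0.52 in batch 2.

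The pattern of the CD48 +6 kb peak over the 12 libraries was set beside all 20155 peaks outside the cluster with a mean of at least 20 normalised counts, by Pearson's correlation of log2 (normalised count + 1). The most alike peaks lay on chromosome 14 (75188382 to 75189444, nearest TMED10, r = 0.991), on chromosome 8 (25030242 to 25031267, nearest NEFL, r = 0.989) and on chromosome 11 (47390876 to 47391526, r = 0.989). The last lies 12329 bp from SPI1, the gene of PU.1 itself. The 12 libraries are shared and fall into 2 genotypes, so a high r is shared by many lost peaks, and 279 of the peaks had r over 0.95. Within CD48, r was 0.979 for the +7 kb, 0.902 for the +3 kb and -0.43 for the +28 kb peak.

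Genes that SLAM family receptors work with, and the related receptors CD2 and CD58, were examined in the same way. This signalling list of 22 genes held adaptors, kinases, phosphatases, effectors, phagosome partners of SLAMF1 and these related receptors. Peaks lay within 50 kb of 19 of the 22 genes, 96 in all. Of these peaks, 23 (24.0%) were lost, beside 20.7% of all peaks, and 12 (12.5%) gained, beside 21.3% of all peaks. Their median log2 fold change was -0.14, beside -0.025 over all peaks. After the 10 Mb median around each peak was subtracted, 19 were called lost and 16 gained, beside 5121 and 5765 of all 26642 peaks. The part of the regional level in these counts was not tested. The counts by role below are to be read against the same shares of all peaks, 20.7% lost and 21.3% gained. By role, 4 of 22 peaks at the Src family kinases (FYN, LCK, LYN, FGR) were lost and 4 gained, and at the inhibitory enzymes (CSK, PTPN6, PTPN11, INPP5D) 6 of 19 were lost and 1 gained. At the effectors 8 of 34 were lost and 4 gained, and at the phagosome partners of SLAMF1 (BECN1, UVRAG, PIK3C3) 2 of 12 were lost and none gained. SH2D1A, which encodes SAP, had no peak, and the single peak near SH2D1B (chr1:162422791-162423610), which encodes EAT-2, fell from 97.0 ± 9.80 to 62.5 ± 11.4 normalised counts (SD, n = 6; log2 fold change -0.60, DESeq2 adjusted p 6.7e-05).

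Peaks named here had the smallest adjusted p of this list in their direction, so their p-values describe a selection. The clearest loss of this list lay 2621 bp from DOK2, an adaptor that restrains signalling (chromosome 8, 21905483 to 21906252). It held 30.5, 45.95 and 62.4 normalised counts in control and 5.59, 7.25 and 15.4 in knockdown libraries, without overlap (log2 fold change -2.54 ± 0.27, DESeq2 adjusted p 2.3e-19). A second peak near DOK2 (21896962 to 21897813) and a peak within LYN on chromosome 8 (55990951 to 55991617), a Src family kinase of myeloid cells, had log2 fold changes of -1.16 and -1.65 (DESeq2 adjusted p 2.8e-09 and 6.4e-09). The clearest gain lay within PRKCQ, a protein kinase C of T cells (chromosome 10, 6457341 to 6458392). It held 2.79, 8.16 and 11.7 in control and 26.1, 31.8 and 41.9 in knockdown libraries, also without overlap (log2 fold change 2.04 ± 0.31, DESeq2 adjusted p 6.4e-10). Further gains lay 35335 bp from VAV1 within ADGRE1 (chromosome 19, 6892696 to 6894460, log2 fold change 1.06, DESeq2 adjusted p 3.0e-09) and within FGR (chromosome 1, 27622958 to 27623821, log2 fold change 1.25, DESeq2 adjusted p 2.6e-07).

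CD2 and CD58, a receptor and its ligand from the wider CD2 family, lie on the short arm of the same chromosome. Of 4 peaks each, 3 were gained and none lost around CD2, and 2 were lost and none gained around CD58, beside 20.7% lost and 21.3% gained over all peaks. With so few peaks these counts say little, and their difference was not tested. The peaks with the smallest adjusted p, chosen after the values were seen, rose from 20.6 ± 5.52 to 44.3 ± 6.43 normalised counts near CD2 (chr1:116733366-116734094, log2 fold change 1.096, DESeq2 adjusted p 2.1e-06) and fell from 40.3 ± 5.93 to 18.6 ± 6.43 near CD58 (chr1:116504296-116505809, log2 fold change -1.09, DESeq2 adjusted p 5.5e-06; SD, n = 6 each).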

How the data were processed

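Per the study's methods, the authors used bowtie2 for alignment, discarded duplicate reads and reads outside the primary chromosomes, called macs2 peaks per condition and batch, kept peaks reproducible between batches, merged the peaks of both conditions and counted reads with featureCounts. Versions are not given in the sources used here. The deposited table holds raw counts, 1 per library at each peak, beside the peak width and position. Peaks were called on the libraries compared. Methods and labels name a mouse and a human build, and the coordinates were read as GRCh38, since peaks meet the gene ends of RefSeq GRCh38.p14.

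All 26642 peaks were fitted with DESeq2 1.42.0 in R 4.3.3 (median-of-ratios size factors, batch as covariate, fold changes not shrunken), and 19 peaks were read out. Alternatives were edgeR 4.0.16, other size factors, covariates, filters and windows, and leaving out each library. Pairs of libraries of 1 genotype differed beyond counting noise (chi-square over degrees of freedom 1.29 to 2.24), so none was counted as a duplicate. Both tools were tested on simulated data. Peaks named in full were the nearest to each gene start (for SLAMF7, CD84 and LY9, without a listed strand, the nearer gene end), those within CD48, the 4 strongest others, the highest gain and the lowest loss outside CD48. The peak near VSIG8, the SLAMF1 +6 kb peak, 2 peaks upstream of SLAMF1 and the narrow TAGLN2 peak were named outside this rule after their values were seen. Of the signalling list, the 3 called peaks of smallest adjusted p in each direction were named, and SH2D1B was added as the only adaptor with a peak. The genes, lists and rules were chosen with earlier results of these data known. The signalling list had 22 genes. Intervals and counts cover counting error and the spread between these libraries only.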

Additional observations from a re-analysis of the deposited data

Results flagged for a closer look

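Dixon's criterion, which divides the gap between an extreme library and its neighbour by the whole range, was applied to both genotypes at each of the 19 peaks. Of the 38 groups of 6 libraries, 3 exceeded it, where chance alone gives about 1 in 20 (1.9 here). At the TAGLN2 peak (159923142 to 159926080), knockdown replicate 6 held 123.9 normalised counts, where the other knockdown libraries held 162.5 to 174.6. At the peak next to CD84 (160540052 to 160541089), knockdown replicate 1 held 79.5, where the others held 38.2 to 48.2. At the peak between SLAMF7 and LY9 (160782061 to 160782792), knockdown replicate 4 held 17.2 from 26 reads, where the others held 8.92 to 11.2. All 3 are knockdown libraries, and each is a different one. No peak of the cluster passed the test of a difference between batches, and no data beside the peak counts were used.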

How the results depend on the processing

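Of the 6 lost peaks, 6 were called in each of the 12 fits without 1 library, and 6 by edgeR and with the replicate block. When peaks under 10 counts in any library were dropped, 12 of the 19 peaks and 3 lost calls were left. The 1 gained call became 2 by edgeR and 4 after regional centring on 10 Mb, and 0 with the replicate block, in batch 1 or batch 2 only, with a window of 10 kb and at a fold change over 2, and 0 to 1 without 1 library. It was 0 without control replicates 2 or 6 or knockdown replicates 1, 4, 5 or 6. Without control replicate 4 or knockdown replicate 2 the count was 1, but the peak called was another. The median log2 fold change over the 19 peaks moved from 0.036 to 0.22 after centring, -0.52 with a window of 10 kb and -0.25 with 100 kb, and lay between -0.046 and 0.069 without 1 library. The uncalled peaks at DUSP23 (0.066 in batch 1), PIGM (0.013 in batch 1), TAGLN2 (-0.044 in batch 2) and within CD244 (-0.12 in batch 2) turned direction in 1 batch. At the signalling list, 23 lost calls became 19 after regional centring, 11 in batch 1 and 15 in batch 2. They were 10 with at least 10 counts in every library and 10 at a fold change over 2. Without 1 library they ran from 17 to 24. The 12 gained calls became 16 after regional centring, 5 in either batch alone and 7 with the replicate block. Without 1 library they ran from 9 to 14. The cause was not tested. Same-numbered libraries of the genotypes correlated between -0.10 and 0.012 after group means were removed. With so few libraries per genotype and batch, this cannot exclude pairing. Replicate 3 was in batch 1 for control and in batch 2 for knockdown cells. The replicate block, a fit with the replicate number as covariate, thus does not join true pairs throughout. Counts of batch differences stayed at 0 in all fits run.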

Other observations

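The 19 peaks held 0.0948% ± 0.0066 (SD, n = 6) of the in-peak reads of control libraries and 0.0731% ± 0.0031 of those of knockdown libraries. The ranges, 0.0854% to 0.106% and 0.0699% to 0.0791%, did not overlap. These shares include the 3 lost CD48 peaks, and the locus was chosen on losses within CD48, so the fall is a description only. Without those 3 peaks, normalised counts summed to 780.4 ± 56.3 in control and 758.6 ± 40.6 in knockdown libraries.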
